A study of Mus musculus with 3 samples.

Results

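The proton, sodium and calcium pump ATPases move ions across membranes with the energy of ATP. Their genes were taken as every row of the deposited signal table whose symbol is that of a V-ATPase subunit or accessory protein (*Atp6*), an Na,K-ATPase chain, an H,K-ATPase chain (*Atp4a*, *Atp4b*, *Atp12a*) or a calcium pump (*Atp2a*, *Atp2b*, *Atp2c*). This gave 42 of the 30854 symbols in the table, 23 of the V-ATPase and 19 of the P-type pumps. They stand for 41 genes, since *Atp6a1* is an older symbol of *Atp6v1a* and both are listed. The rule uses symbols and no measured value, although the group was proposed with earlier results of these data known.

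RNA came from the embryonic region of wild-type mouse embryos at the early head-fold (EHF) stage (E7.75), cut from the extraembryonic region, and was hybridized to 3 Illumina Mouse-6 arrays. The labels name the strain as Cd-1 and number the arrays as replicates 1, 2 and 3 of a single group, with no treatment and no second genotype, so levels could be set against the background of each array but not against another condition. The strain and the extraction reagent differ between the labels and the study's methods (ICR and TRIzol in the latter), and neither settles whether an array holds 1 embryo or a pool. The spread between arrays may therefore be partly technical. In RNA from a whole region, fewer cells that use a gene and less of its RNA per cell cannot be told apart.

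V-ATPase is a rotary proton pump. Its cytosolic V1 domain hydrolyses ATP and turns a shaft that drives protons through the membrane-embedded V0 domain, which acidifies endosomes, lysosomes and secretory vesicles. Many of its subunits are encoded by several genes, of which one is used in most cells and the others in specialised cells such as kidney intercalated cells, osteoclasts or sperm. P-type pumps are single chains that are phosphorylated during transport, and in the case of Na,K-ATPase and H,K-ATPase the catalytic alpha chain needs a beta chain to reach the cell surface. Visceral endoderm, the absorptive epithelium that covers the early mouse embryo, is known for very active endocytosis. H,K-ATPase and V-ATPase are known from work in frog and chick embryos on left-right patterning, and the study itself concerned left-right patterning.

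Each value is the mean log2 signal of a symbol's probes, and comes with a detection p, the share of the negative-control probes of that array with at least as high a signal. For a symbol with several probes the deposited p combines those of its probes and is not such a share. A gene was called where this p stayed under 0.01 on each of the 3 arrays. This was met by 20.6% of all symbols and by 21 of the 42 pump symbols (50.0%). Among V-ATPase symbols 14 of 23 (60.9%) were called, and among P-type symbols 7 of 19 (36.8%). A further 2 symbols met the threshold on 2 arrays, 2 on 1 array, and 17 on none, so 25 of 42 met it on at least 1 array, against 33.0% of all symbols. The level of a gene above background is its log2 level after normalization minus the lowest level of a detected one-probe symbol on the same array. Its median was 0.43 over the 42 symbols and -0.47 over all symbols. Probes differ in how strongly they bind their target, so differences in level between genes do not give differences in the amount of RNA. There were 29 pump symbols with 1 probe and 13 with several, and the one-probe symbols rested on 24 to 56 beads per array.

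**Figure D1:**
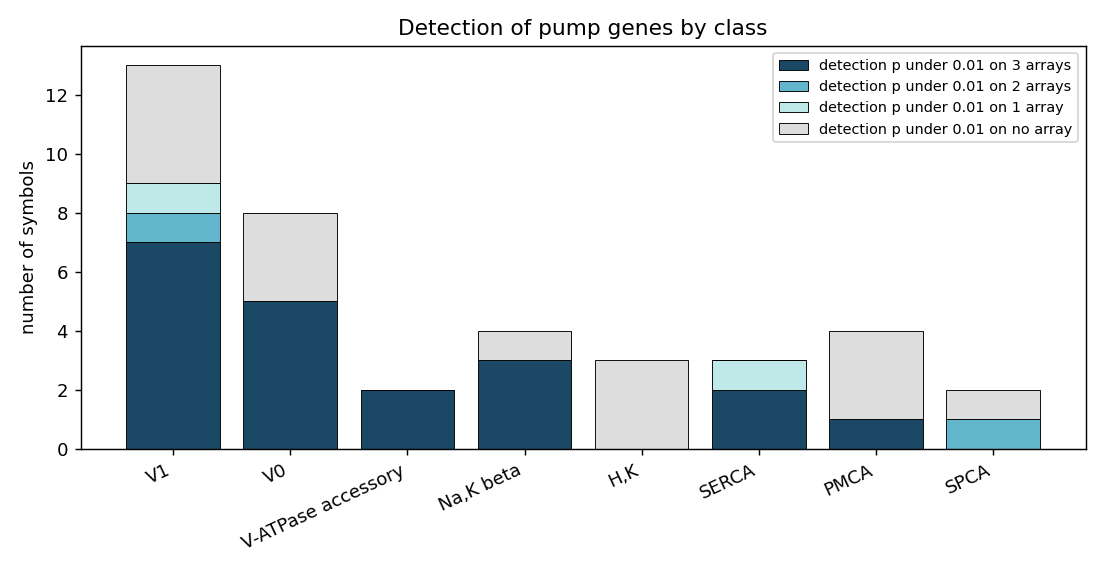
Number of pump gene symbols (y axis) in each class (x axis), split by the number of arrays on which the detection p was under 0.01. Both V-ATPase accessory genes and 7 of 13 V1 symbols were called on all 3 arrays, and none of the 3 H,K-ATPase symbols was called on any.

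The V1 domain was represented by 13 symbols of 12 genes, of which 7 were called on all 3 arrays. They cover the 7 subunits that the table holds, and in each subunit exactly 1 gene was called. No symbol *Atp6v1f* was among the members, so subunit F was not covered. The called genes were *Atp6v1a* (the catalytic subunit A), *Atp6v1b2* (the nucleotide-binding subunit B), *Atp6v1c1* (subunit C, which joins the stalks), *Atp6v1d* (the rotating shaft), *Atp6v1e1* and *Atp6v1g1* (the peripheral stalks) and *Atp6v1h* (the regulatory subunit H). In the 4 subunits with several genes, the uncalled ones were *Atp6v1b1*, known from kidney and inner ear, *Atp6v1c2*, *Atp6v1e2*, known from the acrosome of sperm, *Atp6v1g2*, known from neurons, and *Atp6v1g3*, known from kidney.

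On replicates 1, 2 and 3 the log2 signals of *Atp6v1e1* were 11.20, 11.06 and 10.45. The signals of *Atp6v1b2* were 10.25, 9.98 and 9.26. Those of *Atp6v1h* were 9.90, 9.93 and 9.22. All of these lay far above the background levels of the arrays, which were 6.69, 6.66 and 6.58 on the same scale, and all had a detection p of 0, which means that no negative control reached the signal. The level above background was 6.01 ± 0.27 (SD, n = 3) for *Atp6v1e1*, 4.87 ± 0.39 for *Atp6v1b2* and 4.71 ± 0.29 for *Atp6v1h*. By limma on the deposited signals, with Benjamini-Hochberg adjustment over all symbols, the one-sided adjusted p was 6.7e-05 for *Atp6v1e1*, 0.00029 for *Atp6v1b2* and 0.00016 for *Atp6v1h*. The levels of the other called V1 genes above background ranged from 1.34 ± 0.13 for *Atp6v1g1* to 2.20 ± 0.45 for *Atp6v1d*.

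The 4 V1 symbols called on no array had signals between 6.28 and 6.69 and detection p between 0.013 and 0.924. Of these, *Atp6a1* names the same gene as the called *Atp6v1a*, and the pair disagreed. *Atp6v1a* had signals of 7.88, 7.80 and 7.25 with a detection p of 0 on each array. *Atp6a1* had signals of 6.62, 6.65 and 6.43, with detection p of 0.0577, 0.0128 and 0.256. Each symbol was measured by 1 probe, so the call for subunit A rests on the probe listed as *Atp6v1a*. This pair was singled out after its values were seen.

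Some V1 genes were called on part of the arrays. *Atp6v1c2* met the threshold on replicates 1 and 2, with detection p of 5.71e-05 and 0.00304, and not on replicate 3, with 0.233, and its signals of 6.72, 6.61 and 6.45 gave a mean level 0.21 below background (-0.21 ± 0.35, SD, n = 3). *Atp6v1b1* met it on replicate 3 alone, with detection p of 0.515, 0.780 and 0.00855 on replicates 1, 2 and 3. On a linear scale its one probe read 90.9, 84.4 and 96.2, with standard errors over beads of 3.25, 3.68 and 3.83. The reading on replicate 3 exceeded the background level of that array, 95.7, by 0.14 of its standard error over beads.

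The V0 domain was represented by 8 genes, of which 5 were called. *Atp6v0e* (the small subunit e) had signals of 10.74, 10.79 and 10.27, a level 5.68 ± 0.17 above background (limma adjusted p 3.9e-05 on the deposited signals). *Atp6v0b* (a subunit of the proton-carrying rotor ring) had signals of 9.32, 9.56 and 9.12, a level 4.33 ± 0.20 above background (limma adjusted p 5.5e-05). *Atp6v0d1* (the link between rotor ring and shaft) had signals of 9.51, 9.35 and 8.97, a level 4.27 ± 0.15 above background (limma adjusted p 8.0e-05). No symbol *Atp6v0c* was among the members, so subunit c was not covered. All 4 V0 subunits in the table had a called gene. Subunit a, the stator part of the proton path whose isoforms direct the pump to different membranes, was the one with more than 1. *Atp6v0a1*, the isoform of synaptic vesicles, was 3.16 ± 0.21 above background, and *Atp6v0a2*, the isoform of the Golgi and early endosomes, 2.29 ± 0.09. The detection p of *Atp6v0a1* was 0.00304, 0.00234 and 0.00979, so replicate 3 was just inside the threshold, and its mean signal over 2 probes lay clearly above background on every array. The a3 isoform is listed as *Tcirg1*, which the rule does not take in, and is given below among the genes that act with the pumps. The remaining *Atp6v0a* symbol, *Atp6v0a4* of kidney intercalated cells, was called on no array, nor were *Atp6v0d2*, known from osteoclasts, and *Atp6v0e2*. Those 3 genes had signals between 6.26 and 6.58.

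Both accessory genes were called. *Atp6ap1* (Ac45, which takes part in assembly and targeting of the pump) had signals of 10.72, 10.40 and 10.26 and a level 5.55 ± 0.13 above background. *Atp6ap2*, the prorenin receptor and an assembly factor, had signals of 9.44, 9.13 and 8.63 and a level 4.02 ± 0.30 above background. The limma adjusted p on the deposited signals was 2.9e-05 for *Atp6ap1* and 0.00032 for *Atp6ap2*.

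**Figure D2:**
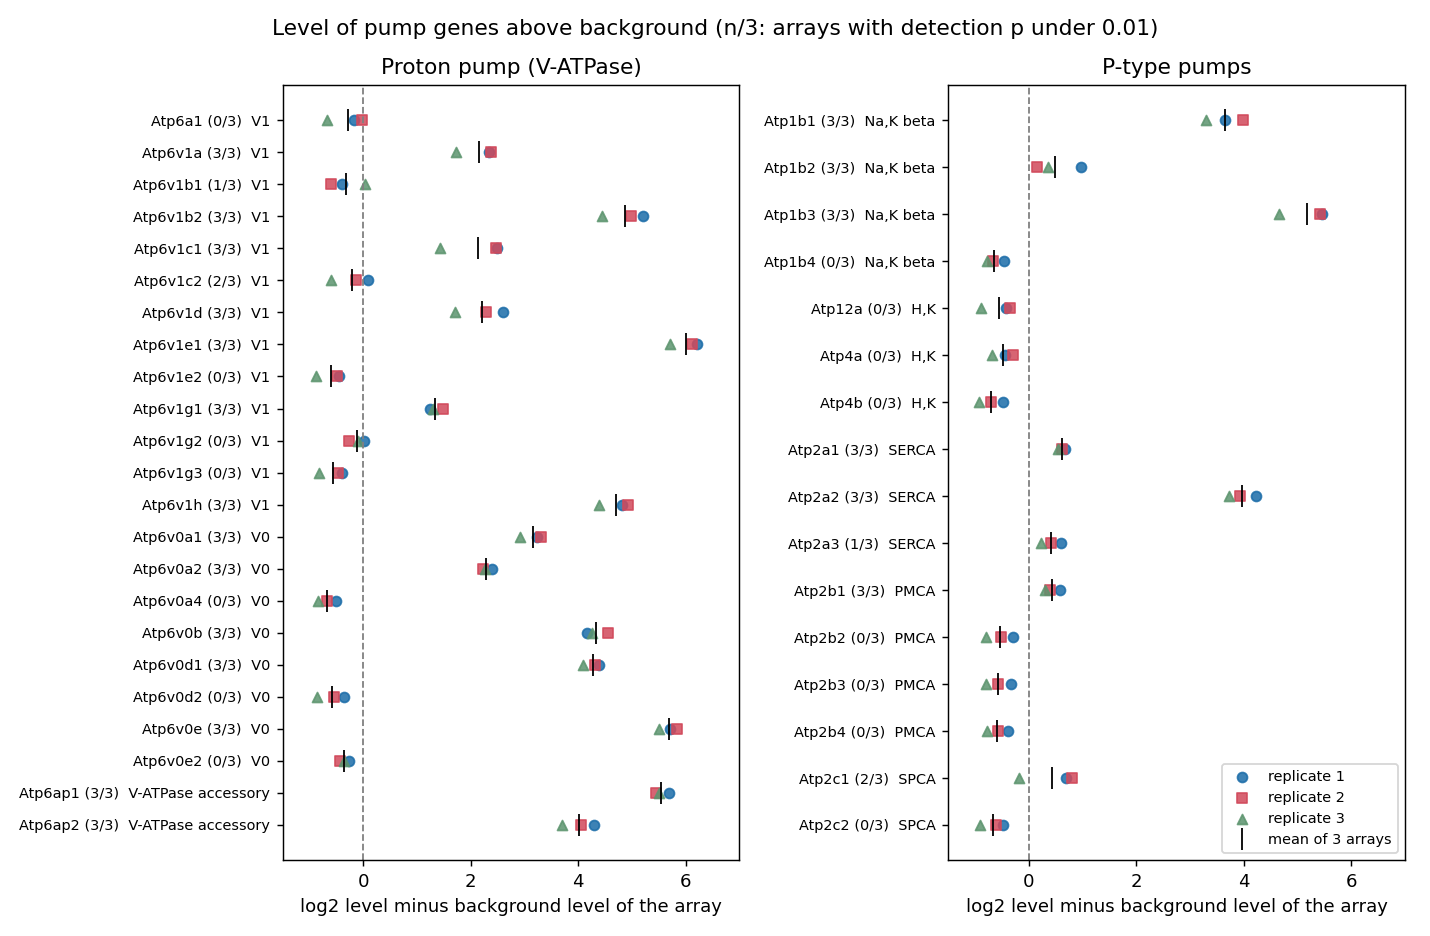
Level of 39 pump gene symbols above the background level of the array (x axis, log2), with V-ATPase on the left and P-type pumps on the right. Each point is 1 array, the black bar is the mean of 3 arrays, and n/3 gives the arrays with a detection p under 0.01. The dashed line is the background level, which a one-probe symbol called on an array reaches by definition. The means of the 20 symbols marked 3/3 run from 0.43 for *Atp2b1* to 6.01 for *Atp6v1e1*.

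Promoters were compared as sequence, because many V-ATPase genes are known to carry the palindrome CACGTG, the core of the site bound by TFEB and TFE3, which act on lysosomal genes. RefSeq sequence of GRCm38.p6, from 250 bases before to 50 after each start, was given for 26 of the 41 pump genes, 13 called and 13 not called. CACGTG, which reads the same on both strands, was present in 6 of the 13 called genes (46.15%) and in 0 of the 13 uncalled genes. It was present in 12.48% of the genes in the table that were called on all 3 arrays, in 8.6% of those that were not, and in 8.09% of all genes with a promoter. The 6 genes were *Atp6v0b*, *Atp6v0d1*, *Atp6v0e*, *Atp6v1a*, *Atp1b3* and *Atp2b1*. A gene with several promoters was counted if any of them held the motif, and *Atp1b3* and *Atp2b1* have 2 each. The presence of these letters is a description and does not show binding. The arrays gave no call on all 3 replicates for either factor. *Tcfeb*, the table's symbol for *Tfeb*, had detection p of 0.703, 0.411 and 0.484, and *Tcfe3*, that for *Tfe3*, had 0.00855, 0.016 and 0.

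The 4 V-ATPase promoters with the motif are shown to give its place relative to the start of transcription, read 5′ to 3′ on the strand of the gene, with CACGTG in capitals. The window of *Atp6v0b* (chr4:117887330-117887479, minus strand) runs from -150 to -1, counted from the start, and holds the motif at -36 and -18. That of *Atp6v1a* (chr16:44139280-44139429, minus strand) runs from -170 to -21 and holds it at -131. The shorter windows of *Atp6v0d1* (chr8:105566057-105566107, minus strand) and *Atp6v0e* (chr17:26676359-26676409, plus strand) hold it at -3 and at 4, across or next to the start.
Atp6v0b: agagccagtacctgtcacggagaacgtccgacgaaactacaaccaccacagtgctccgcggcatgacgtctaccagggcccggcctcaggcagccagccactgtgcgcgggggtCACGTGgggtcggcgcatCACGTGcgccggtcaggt
Atp6v1a: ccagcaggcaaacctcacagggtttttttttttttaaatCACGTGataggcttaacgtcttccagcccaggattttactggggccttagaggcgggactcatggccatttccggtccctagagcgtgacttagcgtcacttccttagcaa
Atp6v0d1: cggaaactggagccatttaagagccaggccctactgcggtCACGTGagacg
Atp6v0e: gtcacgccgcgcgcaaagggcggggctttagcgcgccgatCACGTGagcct

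GC content was also set beside the calls. The GC box GGGCGG, searched on both strands, was present in 10 of 13 called pump genes (76.92%) and in 6 of 13 uncalled ones (46.15%). Among the genes in the table it was present in 72.56% of those called on all 3 arrays and in 46.02% of those not called, so the shares of the pump genes lay near those of other genes. The median number of CpG dinucleotides in the 300-base window was 21 in called and 10 in uncalled pump genes, against 23 and 12 in the table. The ranges overlapped widely, from 4 to 54 in called and from 1 to 36 in uncalled pump genes. The count of CpG was chosen after the data had been seen.

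Within V0, called *Atp6v0e* had 20 CpG in its 300-base promoter and uncalled *Atp6v0e2* had 18. Called *Atp6v0a1* had 7 and uncalled *Atp6v0a4* had 1. The stalk subunit E of V1 gives a further pair of genes in which 1 was called and 1 was not, shown as an example. *Atp6v1e1*, with the signals above, has 16 CpG in its 300-base promoter, and *Atp6v1e2*, with signals of 6.47, 6.48 and 6.28, has 10. Their windows from -150 to -1 are shown with each CG in capitals, 10 in *Atp6v1e1* (chr6:120822699-120822848, minus strand) and 6 in *Atp6v1e2* (chr17:86947888-86948037, minus strand).
Atp6v1e1: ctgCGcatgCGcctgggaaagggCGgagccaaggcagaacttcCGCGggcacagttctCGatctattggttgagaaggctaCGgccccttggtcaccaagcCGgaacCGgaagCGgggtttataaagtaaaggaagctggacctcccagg
Atp6v1e2: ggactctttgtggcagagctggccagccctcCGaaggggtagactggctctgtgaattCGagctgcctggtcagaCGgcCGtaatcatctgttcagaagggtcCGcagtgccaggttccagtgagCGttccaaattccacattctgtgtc

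**Figure D3:**
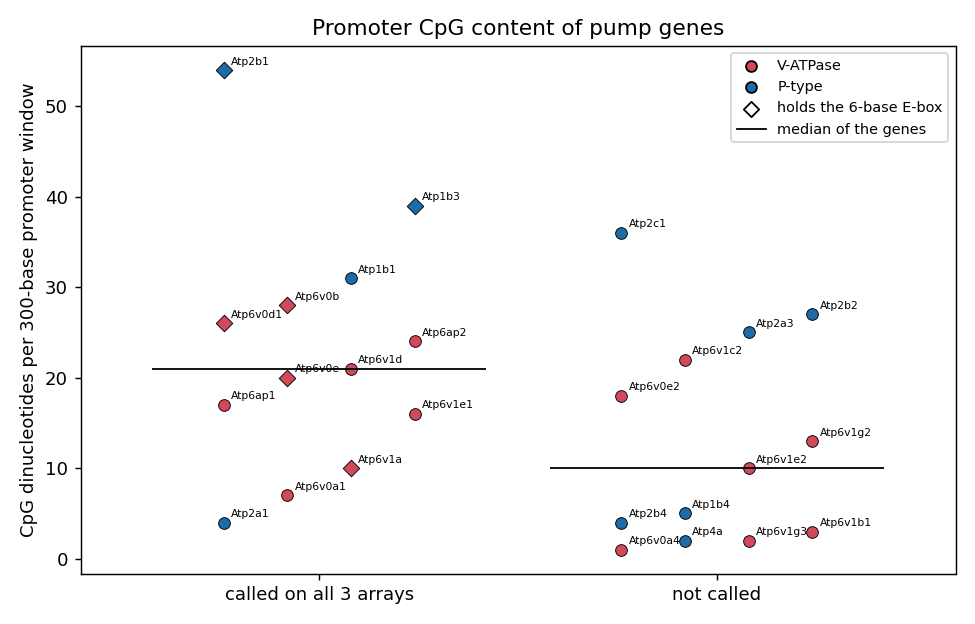
CpG dinucleotides per 300-base promoter window (y axis, the highest window of each gene) for the 26 pump genes with a RefSeq promoter, by call. Diamonds hold the 6-base E-box CACGTG, all 6 of them among called genes, and black lines are medians, 21 and 10.

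Na,K-ATPase exports sodium and imports potassium at the plasma membrane. The table held 4 genes named as its beta chains, each measured by 1 probe, of which 3 were called. *Atp1b3* had signals of 10.48, 10.36 and 9.48, a level 5.18 ± 0.45 above background (limma adjusted p 0.00028 on the deposited signals). *Atp1b1*, the beta chain of most epithelia, had signals of 8.88, 9.07 and 8.30, a level 3.65 ± 0.35 above background (limma adjusted p 0.00047). *Atp1b2*, known from glia, was close to background, with signals of 7.09, 6.70 and 6.67 and a level of 0.49 ± 0.43. Its linear reading was 136 ± 6.49 (SE over beads) on replicate 1 but 104 ± 4.47 on replicate 2 and 102 ± 5.0 on replicate 3. These lay 5.11, 0.69 and 1.25 standard errors above the background level of the array. It did not pass limma on the deposited signals (adjusted p 0.18) and its level was 0.25 without replicate 1 (limma adjusted p 0.35). *Atp1b4* was called on no array, with signals of 6.45, 6.28 and 6.38 and detection p of 0.788, 0.993 and 0.512.

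H,K-ATPase, which exchanges protons for potassium, was represented by the gastric alpha and beta chains (*Atp4a*, *Atp4b*) and the non-gastric alpha chain (*Atp12a*). None of the 3 was called on any array. *Atp4a* had signals of 6.47, 6.56 and 6.43. *Atp4b* had 6.44, 6.21 and 6.24. *Atp12a* had 6.50, 6.54 and 6.29. All 9 values lay under the background level of their array and the lowest detection p was 0.0929, so expression was not detectable with these probes, which does not show that it is absent.

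Calcium pumps were represented by 9 genes, of which 3 were called. SERCA pumps fill the endoplasmic reticulum. *Atp2a2*, the SERCA of most cells and of the heart, had signals of 9.37, 9.0 and 8.65 over 2 probes, a level 3.96 ± 0.26 above background (limma adjusted p 0.00023 on the deposited signals). *Atp2a1*, known from fast skeletal muscle, was called close to background, with signals of 6.95, 6.86 and 6.73 and a level of 0.61 ± 0.06 (limma adjusted p 0.012). *Atp2a3*, known from blood cells and some epithelia, had signals of 6.92, 6.79 and 6.63 over 3 probes and detection p of 0.00113, 0.0112 and 0.0491, so it was called on replicate 1 alone.

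PMCA pumps export calcium across the plasma membrane. The widely expressed *Atp2b1* was the 1 called gene of 4, with signals of 6.91, 6.78 and 6.66 and a level of 0.43 ± 0.14, and it narrowly missed the limma threshold on the deposited signals (adjusted p 0.058). Its linear readings were 4.53, 1.82 and 1.64 standard errors over beads above the background level. The other PMCA genes, *Atp2b2*, *Atp2b3* and *Atp2b4*, had signals between 6.37 and 6.57 and were called on no array. SPCA pumps load the Golgi with calcium and manganese. *Atp2c1*, the widely expressed one, had signals of 6.96, 6.94 and 6.54 and detection p of 0, 0 and 0.0221, and *Atp2c2*, known from secretory epithelia, was called on no array.

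**Figure D4:**
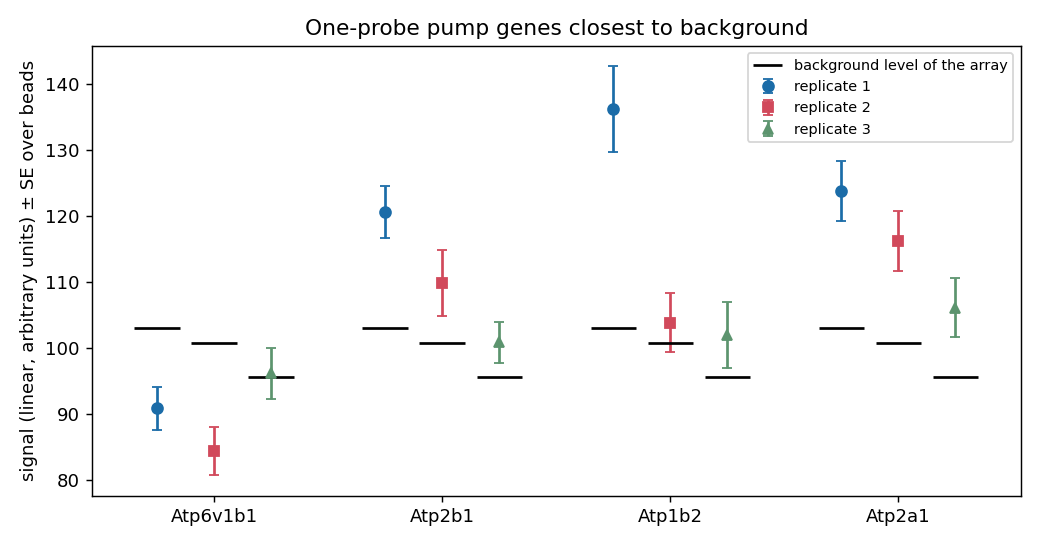
Linear signal (y axis, arbitrary units) of the 4 one-probe pump genes nearest to background among those called on at least 1 array, with the standard error over beads of each array as error bars. Black lines are the background level of each array. The reading of *Atp1b2* on replicate 1, 136, stands above those on the other arrays, 104 and 102.

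The limma test on normalized levels called 23 of the 42 pump symbols, against 25.7% of all symbols, and on the deposited signals 19, against 23.4%. In the former, the fit gave every symbol the same standard error, so its p-values treat the spread as known, and those from the deposited signals are given above. Over 8 alternatives 19 called members stayed past the threshold, with a largest adjusted p of 0.0212. The exceptions were *Atp1b2* and *Atp2b1*, whose largest adjusted p were 0.348 and 0.129. Background was set from detected symbols with a single probe. Called members with a single probe therefore could not lie under it on any array, whatever the test gave. For these members the limma p-values and their stability reuse the call and are not separate evidence for it.

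The spread between arrays was described in the same way. After normexp background correction and quantile normalization, the 21 called pump genes had a median SD between arrays of 0.17 on the log2 scale, from 0.05 (*Atp6v0d1*) to 0.42 (*Atp6v1c1*), and the median over all called symbols was also 0.17. For the comparison with the error over beads, signals were quantile normalized without background correction. Of the 15 called genes with 1 probe, 12 then had an SD between arrays above their error over beads. The medians were 0.146 and 0.0977 on the log2 scale. Among the 14 uncalled symbols with 1 probe, 9 had an SD above it. The error over beads covers the reading of an array and not the preparation of its sample. With background correction and quantile normalization, the 5 called genes with the largest SD were *Atp6v1c1* (0.42), *Atp1b2* (0.36), *Atp6v0b* (0.29), *Atp1b1* (0.27) and *Atp1b3* (0.26). *Atp6v1c1* had signals of 7.97, 7.86 and 7.08 and, after normalization, lay 0.48 below its mean on replicate 3. *Atp1b3* lay 0.30 below its mean on the same array, whereas *Atp6v0b* was lowest on replicate 1 (-0.33).

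Of the 21 called genes 5 were highest on replicate 1, 9 on replicate 2 and 7 on replicate 3, where the shares over all called symbols were 29.4%, 29.4% and 41.2%. These counts depended on the scaling. With deposited signals centred on the median of each array they were 15, 6 and 0, and 4700, 1434 and 223 over the 6357 called symbols. The V-ATPase domains differed in this description. Of the 7 called V1 genes 6 were lowest on replicate 3, all but *Atp6v1g1*, against 34.0% of called symbols, while 0 of the 5 called V0 genes and 1 of the 7 called P-type genes (*Atp1b3*) were. Of the accessory genes, *Atp6ap2* was lowest on replicate 3 and *Atp6ap1* highest there. The median deviation from the mean of the arrays on replicate 3 was -0.21 for V1, 0.05 for V0 and 0.02 for all called symbols. Quantile normalization without background correction gave the same counts, with medians of -0.13, 0.04 and 0.01. With the deposited signals centred on the median of each array, 82.0% of called symbols, all 7 V1 genes and all 5 V0 genes were lowest on replicate 3, with median deviations of -0.18, -0.38 and -0.23, so the contrast in counts was lost under that scaling. No test of this difference was made, since the arrays form a single group, and the split by domain was chosen after the data had been seen.

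**Figure D5:**
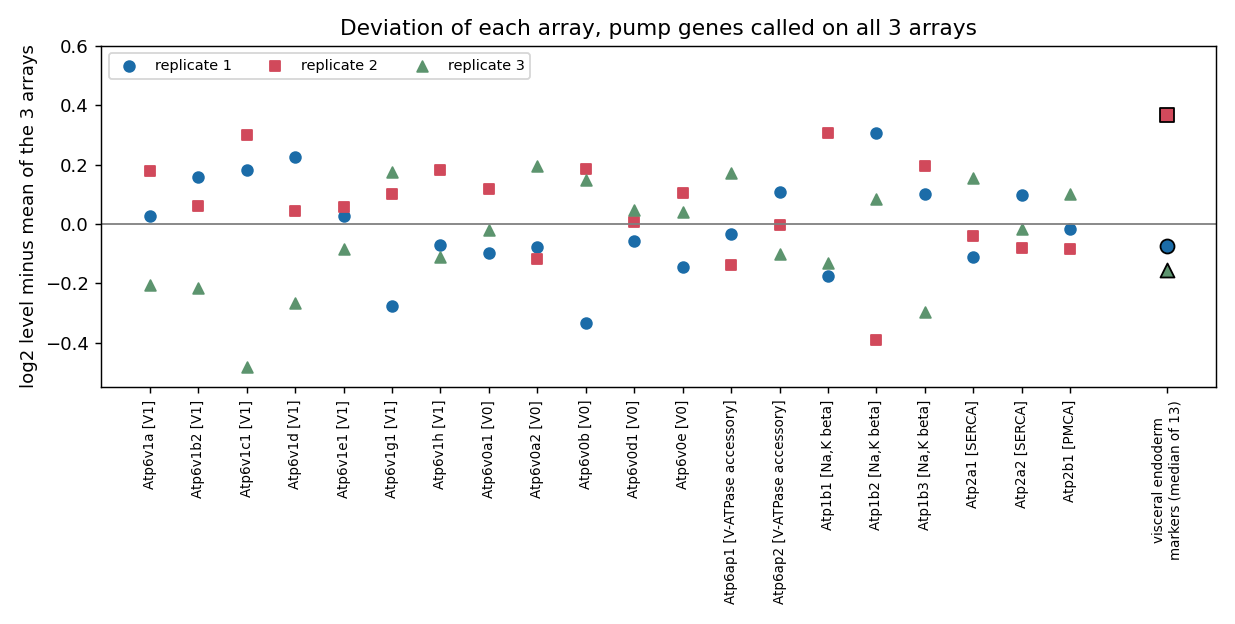
Deviation of each array from the mean of the 3 arrays (y axis, log2 after normexp and quantile normalization) for 20 pump genes called on all 3 arrays, with the median over the 13 called visceral endoderm markers at the right. Green triangles (replicate 3) lie lowest for 6 of 7 V1 genes and for none of the 5 V0 genes, a contrast that was lost with deposited signals centred on the median, where all 12 were lowest there.

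Tissue markers moved between the arrays as well. Of 14 visceral endoderm markers 13 were called, and their summed normalized linear levels over the list were 11926, 14603 and 9141 on replicates 1, 2 and 3, with 10 of the 13 highest on replicate 2. Of 10 extraembryonic ectoderm markers 5 were called (*Bmp4*, *Cdx2*, *Ets2*, *Rhox5* and *Tcfap2c*), and the summed levels over the list were 2195, 2385 and 1759. *Esrrb* met the threshold on 1 array, and *Elf5*, *Eomes*, *Ascl2* and *Gcm1* on none. The list therefore does not show whether extraembryonic ectoderm was in the samples. Of 10 markers of the embryonic region 6 were called, among them *T*, *Otx2* and *Pou5f1*, with summed levels of 2853, 2416 and 2586. *Sox2* met the threshold on 2 arrays, *Six3* and *Foxa2* on 1 and *Hesx1* on none. Genes of all 3 lists were thus called. RNA of the whole region does not show which cells they came from, and the paper describes descendants of visceral endoderm within the gut endoderm of the embryo. By in situ hybridization at head-fold stages, however, it found *Apoc2* in extraembryonic visceral endoderm alone. It proposes that the descendants lower visceral endoderm markers. On the arrays *Apoc2* was called, with combined detection p of 2.8e-05, 5.71e-07 and 0.00042. The source of the marker RNA was not tested. The part of these tissues in the levels of the pump genes was not tested.

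Genes that act with the pumps were read from a list of 54, all of which the table holds. On all 3 arrays 11 were called, and 9 on 2, 3 on 1 and 31 on none. Of 7 V-ATPase subunit and assembly genes 2 were called, the assembly factors *Tmem199* (signals of 8.90, 8.96 and 8.22) and *Ccdc115*. *Vma21*, another assembly factor, listed under an older symbol with 2 probes, had signals of 7.91, 7.74 and 7.44, a level 2.25 ± 0.17 above background (limma adjusted p 0.00065 on the deposited signals), but combined detection p of 0.012, 0.195 and 0.382, so it was not called. The limma test on normalized levels called 4 of these 7 genes. *Tcirg1*, the a3 isoform of osteoclasts and lysosomes, met the threshold on 2 arrays, with signals of 6.67, 6.59 and 6.52 over 4 probes. Of the 7 FXYD regulators of Na,K-ATPase 1 was called, *Fxyd6*, with signals of 10.83, 10.49 and 9.44, and neither SERCA regulator (*Pln*, *Sln*) was.

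Of 9 Na/H exchangers 2 were called, among them *Slc9a8* (signals of 6.85, 6.61 and 6.52 over 2 probes), and of 3 Na/Ca exchangers none. The call of *Slc9a8* rests on combined detection p of 0.0013, 0.0046 and 0.0079. Its level was -0.01 ± 0.38 (SD, n = 3), under background on replicates 2 and 3, and it did not pass limma on normalized levels or deposited signals. Of 6 genes of endosomal and lysosomal chloride transport 1 was called, *Ostm1* (signals of 8.47, 8.22 and 7.55), the partner of the lysosomal exchanger *Clcn7*, which met the threshold on 2 arrays. *Clcn3*, an endosomal exchanger, had signals of 8.30, 8.13 and 7.90 over 5 probes, a level 2.84 ± 0.08 above background (limma adjusted p 0.00014 on the deposited signals), and also met the threshold on 2 arrays, with a detection p of 0.0238 on replicate 3. Both *Vma21* and *Clcn3* were singled out after their values were seen. Of 11 genes of calcium release and store-operated entry 4 were called, the IP3 receptors *Itpr1* (signals of 8.80, 8.38 and 8.33) and *Itpr3* and the calcium channels *Orai1* and *Orai3*. The 3 ryanodine receptors were not called on all arrays. Of 7 other P-type pumps 1 was called, *Atp13a1* (signals of 8.23, 7.91 and 7.62). The share of this list called on all 3 arrays lay near that of the whole table, and its counts depended on the threshold.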

How the data were processed

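Total RNA was amplified to biotinylated cRNA and hybridized to 3 Illumina Mouse-6 arrays, and Partek is named in the submitters' processing notes. The authors deposited, per symbol, a log2 signal that was not normalized between arrays. Beside each signal they also deposited a detection p-value, a mean number of beads and the standard error over beads, an intensity on the linear scale. The genome build of the probes was not given in the sources used here.

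A call was a detection p under 0.01 on all 3 arrays. For levels, signals were corrected with normexp (from the detection p of 21998 one-probe symbols), an offset of 16 was added, and values were quantile normalized. The level minus the background level of the array (4.68, 4.81 and 5.08) was tested with limma 3.58.1 in R 4.3.3, one-sided, with Benjamini-Hochberg adjustment at 0.05. The test was first checked on simulated data, in which genes without signal were set well under background. That check does not cover genes close to background. Probes per symbol were inferred from the mean bead numbers. The number of arrays limits the precision.

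Members were listed by their call. Values per array were given for the 3 highest called members of a class, members called on 1 or 2 arrays, the 5 called members with the largest SD, and uncalled members with several probes and a mean level above background. The members and lists were chosen with earlier results of these data known. Older symbols and promoters came from RefSeq (GRCm38.p6). Python 3.11.15, numpy 2.4.6, pandas 2.3.3 and matplotlib 3.10.9 were used. The alternatives were other thresholds, fewer arrays, limma calls, one-probe symbols, other normalizations and leaving out each replicate. Some genes are not reported here.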

Additional observations from a re-analysis of the deposited data

How the results depend on the processing

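The number of pump symbols called was 21, and between 15 (one-probe symbols) and 25 (at least 1 array) over the alternatives, and 21 to 23 without a replicate. The limma count was 23, and 19 to 27 over its alternatives. A detection p under 0.001 gave 17 symbols and lost *Atp1b2*, *Atp2a1*, *Atp2b1* and *Atp6v0a1*, which left 4 P-type symbols in place of 7. With one-probe symbols alone 9 V-ATPase symbols were called in place of 14, because fewer symbols were counted. The 11 called genes of the list of other genes became 7 with a detection p under 0.001, 20 on at least 2 arrays and 23 on at least 1 array. Leaving out replicate 3 added *Atp2c1* and *Atp6v1c2*. No called member changed direction, an outcome fixed for the 15 called members with 1 probe by the way background was set. *Atp1b2* lost its limma call under 4 alternatives and *Atp2b1* under 3. No paired analysis was possible because the arrays belong to 1 group. Signal over background limits the calls, since weakly expressed genes lie within the range of the negative controls. The use of the deposited signals as levels was chosen after seeing the data.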
